A study of Bos taurus with 14 samples.

Results

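The mitochondrial ribosome is the machine inside mitochondria that translates the messenger RNAs encoded by mitochondrial DNA, all of which give subunits of the respiratory chain and ATP synthase. Its RNAs come from mitochondrial DNA, but every one of its proteins is encoded in the nucleus, made in the cytosol and imported. The large subunit, whose proteins are named MRPL, joins amino acids, and the small subunit, whose proteins are named MRPS, reads the messenger RNA. The mammary gland of a cow close to calving is building the secretory cells that will make milk, a tissue with a high demand for ATP.

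The genes described here were taken by name from the array annotation: every probe set with a single gene symbol that starts with MRPL or MRPS followed by a number. The rule found 84 of the 24016 probe sets tested, and they cover 67 of the 9155 genes with a symbol. Of these, 43 genes (53 probe sets) are named for the large subunit and 24 genes (31 probe sets) for the small subunit. Where a gene had several probe sets, the one with the highest mean signal stands for it.

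Biopsies of mammary tissue came from Holstein cows that had been dried off before calving and were no longer milked, and were measured on an Affymetrix bovine array. The short day (SD) groups had 8 h of light and 16 h of dark per day and the long day (LD) groups had 16 h of light and 8 h of dark, from the end of milking onwards. The arrays were 4 for SD and 4 for LD at day -9, and 3 for SD and 3 for LD at day -24, counted from calving. No group lacked a photoperiod treatment, and it is not stated whether 1 cow could give a biopsy on both days. The p-values rest on the spread between samples within these groups. They treat the 14 samples as separate and allow for no cow shared between days. Values are log2 signals, on which a difference of 1 is a doubling, and the signals of different probe sets are not compared as levels of their genes.

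A few arrays differed from the rest. A set of 280 probe sets (1.17% of all tested) was lower on both LD day -9 replicate 4 and SD day -24 replicate 3, by a gap of 0.7 or more to the lowest of the other 12 arrays. In a fit that weights each array, LD day -24 replicate 1 had the smallest weight, 0.26, followed by LD day -9 replicate 4 (0.42), SD day -24 replicate 3 (0.43) and SD day -9 replicate 1 (0.50). Luminal epithelial markers (all 10 of 10 listed genes measured) had mean log2 signals of 9.19 to 9.74 in SD and 9.23 to 9.47 in LD at day -9, and 9.15 to 9.18 in SD and 9.22 to 9.24 in LD at day -24. Erythrocyte markers, with 5 of 6 measured genes dimmer than the lower quartile of all probe sets, stood at 3.81 to 4.33 over all arrays. The biopsies are whole tissue, in which fewer cells of a type and less RNA per cell cannot be told apart.

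The mitochondrial ribosomal protein genes were well measured. Their mean log2 signals over the 14 arrays lay between 5.94 for MRPS25 and 10.27 for MRPS15, and 64 of the 67 exceeded 6.56, the median of all probe sets. The brightest large subunit probe sets were those of MRPL9, MRPL15 and MRPL23 (9.99, 9.97 and 9.87), and the dimmest those of MRPL28, MRPL38 and MRPL57 (7.13, 6.50 and 6.11). In the small subunit MRPS15, MRPS23 and MRPS14 were the brightest (10.27, 10.07 and 9.78), and MRPS11, MRPS28 and MRPS25 the dimmest (6.86, 6.75 and 5.94). The standard deviation over arrays had a median of 0.21 in both subunits, against 0.25 over all probe sets. It was smallest for MRPL3 at 0.11, a core protein of the large subunit with a bacterial counterpart, and largest for MRPL50 at 0.53, a protein of the mitochondrial large subunit.

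No mitochondrial ribosomal protein gene passed the test between photoperiods, between days or in the interaction of both. In 7 contrasts of limma's moderated test with Benjamini-Hochberg adjustment over all 24016 probe sets, 0 of the 67 genes had an adjusted p under 0.05, and 0 of the 24016 probe sets (0%) did. Before adjustment, p lay under 0.05 for 0 genes in SD minus LD at day -9 (2.77% of all probe sets), for 1 at day -24 (2.42%) and for 0 in the average over both days (1.94%). For day -9 minus day -24 the counts were 0 genes in SD (4.56%), 4 in LD (7.47%) and 1 in the average over both photoperiods (7.72%). In the interaction, the day difference in SD minus that in LD, 5 genes lay under 0.05 (4.15%). The members' counts lay below the share of all probe sets in 6 of the 7 contrasts; in the interaction they came to 5 of 67 against 4.15%.

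The intervals bound how large a difference could have been. The 95% interval of SD minus LD lay within a 2-fold difference for 66 of the 67 genes at day -9 (90.7% of all probe sets) and for 66 at day -24 (87.2%). For day -9 minus day -24 it did so for 66 genes in SD (87.7%) and 66 in LD (87.2%). The interaction was less precise, with 55 genes within 2-fold (69.5%). MRPL50 was the exception in each of the 4 contrasts between pairs of groups.

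The subunits had similar medians in every contrast, and the sign of the medians differed between contrasts. For SD minus LD at day -9 the median difference was -0.11 over large and -0.14 over small subunit genes, against 0.00 over all probe sets, with 34 of 43 and 22 of 24 genes below 0 (49.8% of all probe sets). For SD minus LD at day -24 it was 0.06 and 0.11, against 0.01, with 35 and 21 genes above 0 (52.7%). Averaged over both days, it was -0.02 in both subunits, against 0.01 over all probe sets, with 40 of 67 genes below 0 (47.8%). These 3 contrasts share arrays.

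For day -9 minus day -24 in SD the median was -0.06 in large and -0.07 in small subunit genes, against -0.01 over all probe sets, with 48 of 67 genes below 0 (53.3%). In LD it was 0.14 and 0.18, against 0.00, with 55 genes above 0 (50.5%). Averaged over photoperiods it was 0.05 and 0.07, against 0.00, with 43 genes above 0 (50.2%). The interaction had medians of -0.20 and -0.22, against -0.02, with 59 of 67 genes below 0 (52.1%).

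These medians shifted with single arrays. With any 1 array left out, they kept their sign but not their size in SD minus LD at day -9, in day -9 minus day -24 in LD and in the interaction. In the other contrasts the sign changed as well. The day -9 photoperiod medians, large subunit first, were -0.04 and -0.07 when replicate 4 of LD was left out, and -0.03 and -0.07 when replicate 1 of SD was. The day -24 photoperiod medians were -0.02 and -0.00 with replicate 1 of LD left out, 0.15 and 0.18 with its replicate 2, and 0.11 and 0.15 with its replicate 3. They were 0.18 and 0.25 with replicate 2 of SD left out, and -0.01 and -0.01 with its replicate 3. Leaving out 1 array was thus enough to bring the day -24 medians to either side of 0. The median averaged over both days lay between -0.07 and 0.05 in large and between -0.07 and 0.06 in small subunit genes when any 1 array was left out.

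For day -9 minus day -24 in SD, leaving out a day -9 array gave medians of 0.01 and -0.02 (replicate 1) and -0.11 and -0.09 (replicate 2), and leaving out a day -24 array gave -0.02 and -0.03 (replicate 1), -0.16 and -0.18 (replicate 2) and 0.03 and 0.01 (replicate 3). In LD, the medians were 0.09 and 0.10 with the day -9 replicate 4 left out, and 0.05 and 0.07 or 0.20 and 0.28 with the day -24 replicate 1 or 2 left out. The interaction medians stayed below 0 with any 1 array left out. They were -0.12 and -0.19 with SD day -9 replicate 1 left out, -0.12 and -0.14 with LD day -9 replicate 4, -0.31 and -0.36 with SD day -24 replicate 2, -0.08 and -0.11 with SD day -24 replicate 3, and -0.10 and -0.10 with LD day -24 replicate 1. With the fourth LD array of day -9 and the third SD array of day -24 both left out they were -0.04 in each subunit.

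The median averaged over photoperiods lay between -0.01 and 0.09 in large and between -0.01 and 0.11 in small subunit genes when any 1 array was left out. It was -0.01 in both subunits, with 29 genes above and 38 below 0, when replicate 2 of SD day -24 was left out, and 0.01 in both when replicate 1 of LD day -24 was. A fit that weights each array brought most medians nearer to 0. SD minus LD then had medians of -0.02 in large and -0.04 in small subunit genes at day -9, and of -0.01 and -0.00 at day -24, with 32 genes above and 35 below 0. Day -9 minus day -24 had weighted medians of 0.00 and -0.03 in SD, 0.01 and 0.03 in LD, and 0.02 and 0.01 averaged over photoperiods, and the interaction had 0.01 and -0.03.

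**Figure D1:**
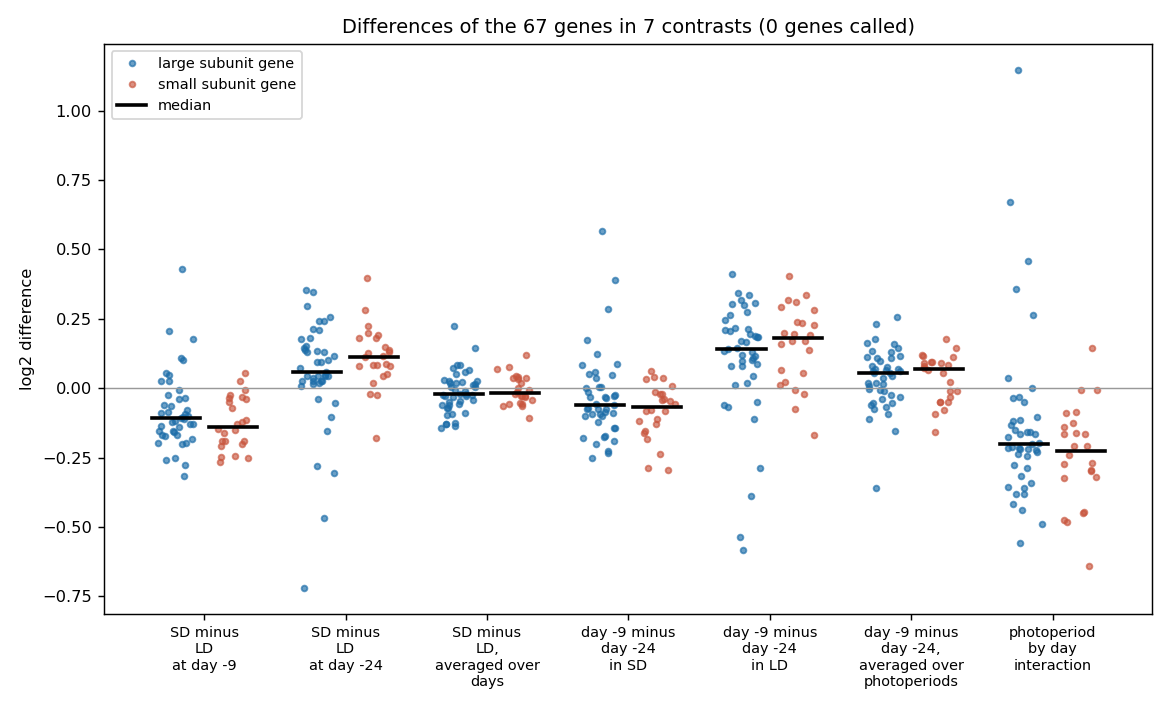
Each point is 1 of 67 genes, with its log2 difference on the vertical axis, in 7 contrasts along the horizontal axis; large subunit genes are blue and small subunit genes red, and black bars are medians. Both subunits have close medians in each contrast, from -0.22 to 0.18, and no gene passed the adjusted threshold.

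The mitochondrial ribosomal protein genes moved together from array to array, within groups as much as between them. Each gene was set against its own mean over the 14 arrays, and the median over a subunit was taken on each array. In SD at day -9 the large subunit medians were -0.23, 0.11, -0.01 and 0.06 in replicates 1 to 4, and in LD at day -9 they were -0.02, 0.03, 0.04 and 0.28. At day -24 they were 0.08, -0.20 and 0.18 in SD, and -0.27, 0.05 and 0.02 in LD. Every group held a high or a low array, and the groups overlap.

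The small subunit followed the same arrays. Its medians were -0.22, 0.05, -0.02 and 0.03 in SD and -0.07, 0.05, 0.04 and 0.29 in LD at day -9, and 0.11, -0.26 and 0.25 in SD and -0.29, 0.07 and -0.02 in LD at day -24. Over all probe sets the array medians lay between -0.04 and 0.04. The group means of the large subunit median were -0.02 ± 0.15 in SD and 0.08 ± 0.13 in LD at day -9 (standard deviation, n = 4 each), and 0.02 ± 0.20 in SD and -0.07 ± 0.18 in LD at day -24 (standard deviation, n = 3 each). Those of the small subunit were -0.04 ± 0.12 in SD and 0.08 ± 0.15 in LD at day -9, and 0.03 ± 0.26 in SD and -0.08 ± 0.19 in LD at day -24. The ranges of the 4 groups overlap in both subunits.

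**Figure D2:**
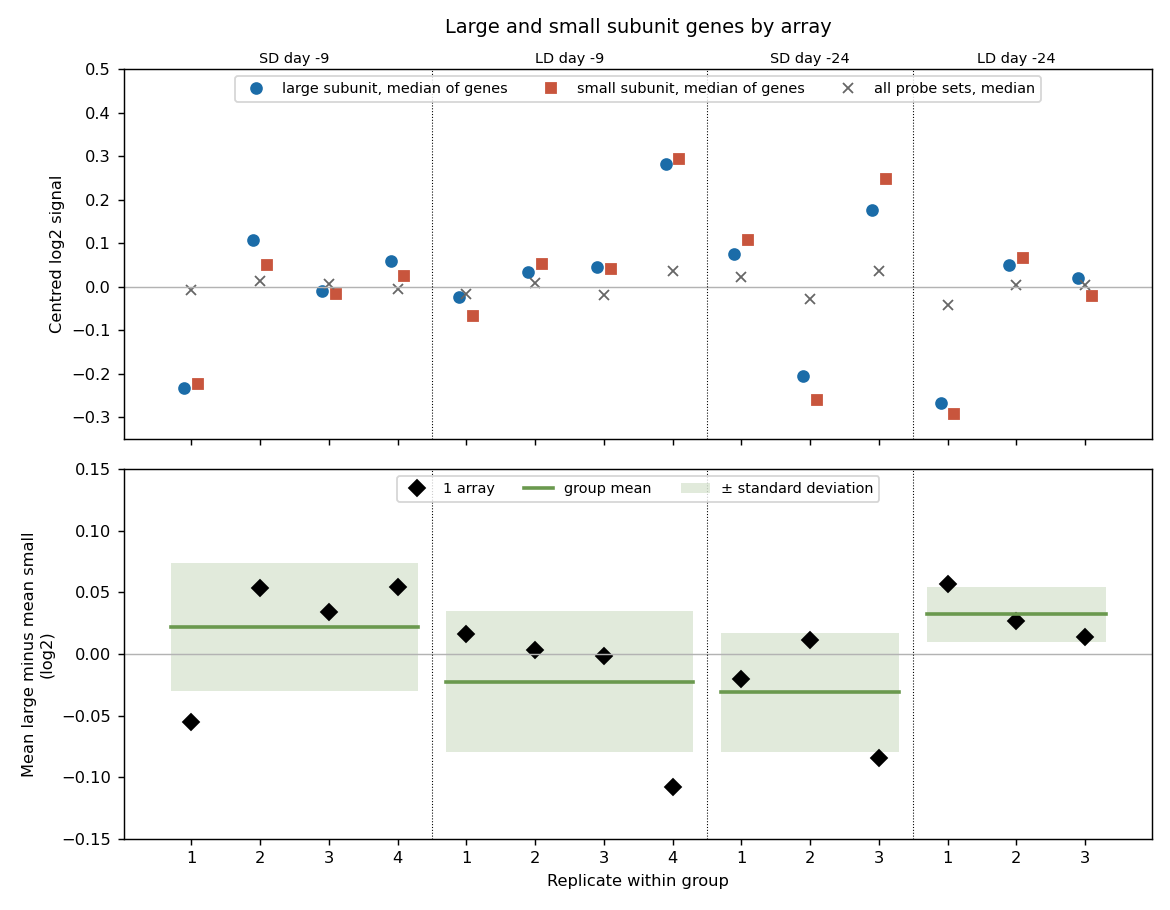
The upper panel plots, for every array by group, the median log2 signal of large subunit genes, of small subunit genes and of all probe sets, each gene relative to its mean over 14 arrays; the lower panel plots mean large minus mean small subunit genes, with group means and shaded standard deviations. The medians of both subunits are lowest on 3 arrays (SD day -9 replicate 1, SD day -24 replicate 2, LD day -24 replicate 1) and highest on LD day -9 replicate 4, with SD day -24 replicate 3 next.

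The balance between large and small subunit genes varied less than the level they shared. The mean of large subunit genes minus that of small subunit genes was -0.06, 0.05, 0.03 and 0.05 in SD and 0.02, 0.00, -0.00 and -0.11 in LD at day -9, and -0.02, 0.01 and -0.08 in SD and 0.06, 0.03 and 0.01 in LD at day -24. The lowest 2 values were those of LD day -9 replicate 4 and SD day -24 replicate 3. The group means were 0.02 ± 0.05 in SD and -0.02 ± 0.06 in LD at day -9 (standard deviation, n = 4 each), and -0.03 ± 0.05 in SD and 0.03 ± 0.02 in LD at day -24 (standard deviation, n = 3 each). Without MRPL20, MRPL32, MRPL44 and MRPL50, 4 large subunit genes chosen after their values were seen, the values on those 2 arrays were -0.01 and -0.00.

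On SD day -9 replicate 1, 63 of the 67 genes lay below their own mean, and 59 did on SD day -24 replicate 2 and on LD day -24 replicate 1. On all 3 of these arrays together 51 genes did, 31 of 43 large and 20 of 24 small subunit genes, against 19.5% of all probe sets. Above their own mean on both LD day -9 replicate 4 and SD day -24 replicate 3 were 57 genes, 36 large and 21 small, against 39.5% of all probe sets. The first 3 arrays held the lowest value of 57 genes (38.9% of all probe sets) and the other 2 the highest value of 48 genes (27.5%). These arrays were chosen after the values were seen, and the members' own medians were lowest or highest there. The excess over all probe sets thus follows in part from that choice, and the counts are a description and not a test.

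**Figure D3:**
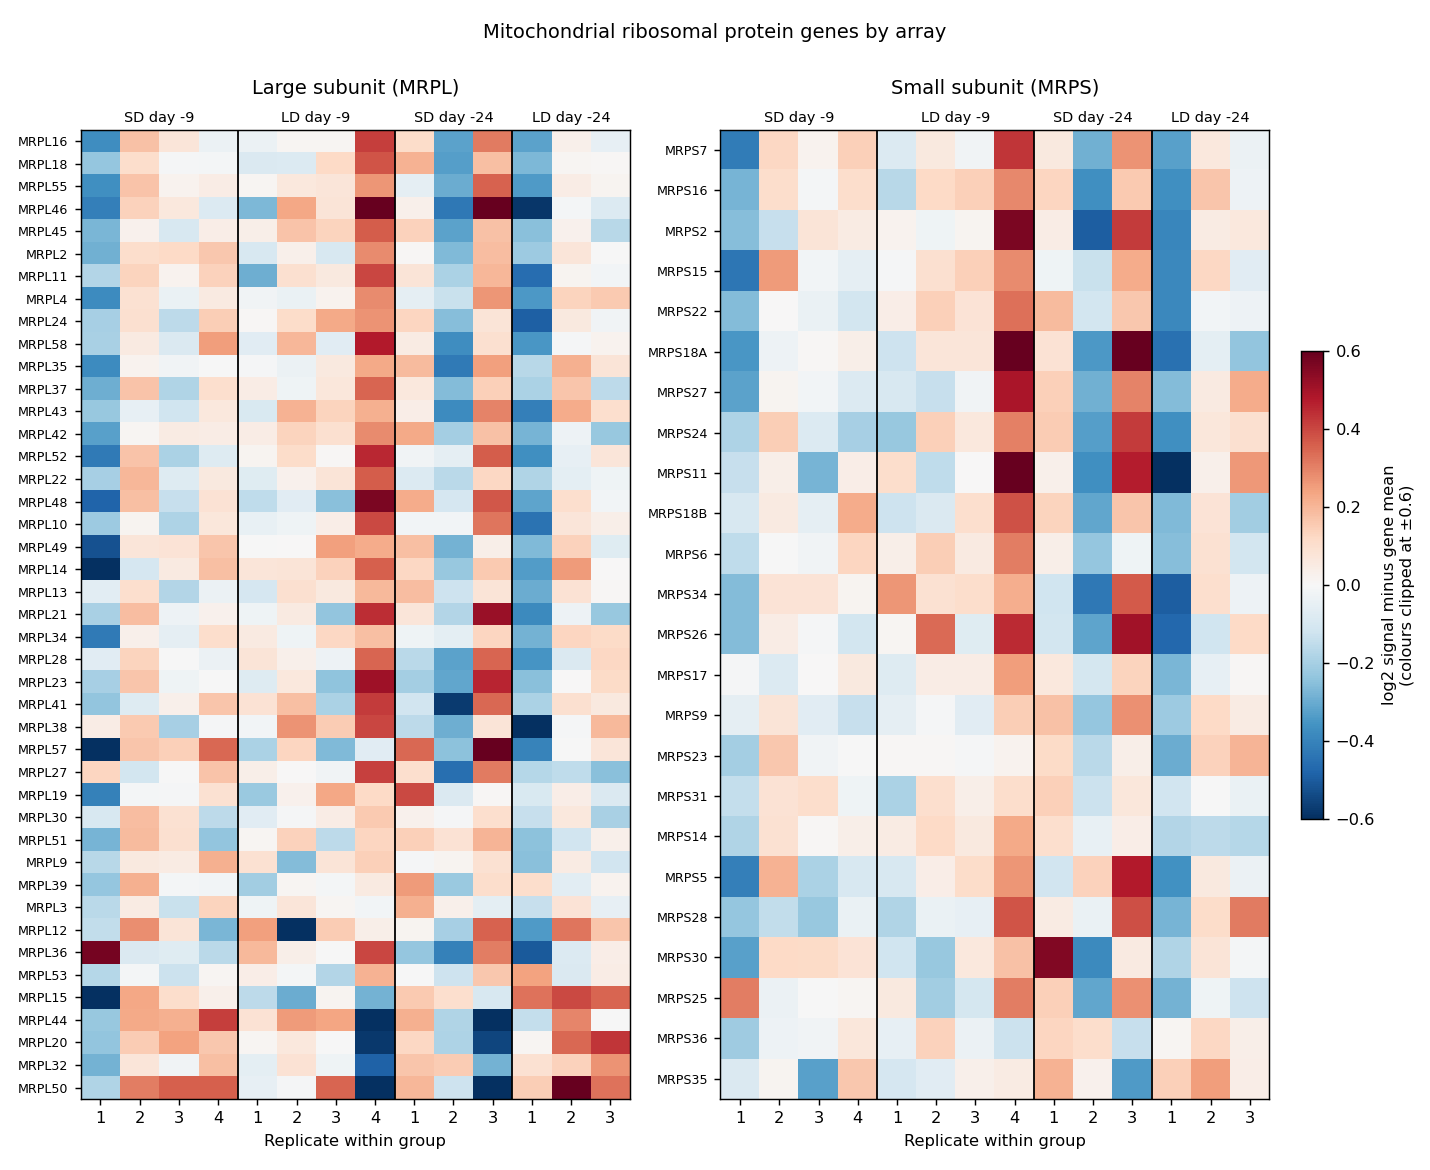
Each row is a gene and each column an array, coloured by log2 signal minus the gene's mean over 14 arrays, with colours clipped at ±0.6; genes are ordered by their correlation with the median of the other members. Most rows are blue on replicate 1 of SD day -9, replicate 2 of SD day -24 and replicate 1 of LD day -24, and red on replicate 4 of LD day -9 and replicate 3 of SD day -24, and the bottom rows of the large subunit run the other way on the last 2.

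As a description over 14 arrays that share their tissue, their processing and these unusual arrays, 55 of the 67 genes correlated with the median of the other members at r above 0.5, against 21.5% of all probe sets with the median of all members. The median r was 0.82 over the members and 0.04 over all probe sets. Pairs of large subunit genes had a mean r of 0.42, pairs of small subunit genes 0.53 and pairs across the subunits 0.48, against 0.00 over all probe sets. With each value taken as a deviation from its group mean, these were 0.46, 0.57, 0.51 and 0.00, so the correlation was as large within the groups.

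MRPS7 of the small subunit head, whose bacterial counterpart binds the ribosomal RNA early in assembly, was the closest to the others, with r of 0.97. Its log2 signals were 7.74, 8.28, 8.18 and 8.30 in SD and 8.07, 8.22, 8.14 and 8.58 in LD at day -9, and 8.22, 7.87 and 8.43 in SD and 7.83, 8.22 and 8.12 in LD at day -24. The 3 lowest values belong to replicate 1 of SD day -9, replicate 1 of LD day -24 and replicate 2 of SD day -24, each in another group, and the groups overlap.

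MRPL16, a large subunit protein with a bacterial counterpart, followed with r of 0.97. Its values were 8.90, 9.45, 9.34 and 9.24 in SD and 9.24, 9.28, 9.28 and 9.69 in LD at day -9, and 9.38, 8.95 and 9.58 in SD and 8.95, 9.30 and 9.22 in LD at day -24. It was lowest and highest on the same arrays as MRPS7. MRPS16 and MRPL18 came next, with r of 0.95 and 0.94.

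MRPL46, a protein of the mitochondrial large subunit, had the largest standard deviation over arrays, 0.37, among the genes with r above 0.5. Its values were 6.73, 7.28, 7.21 and 7.06 in SD and 6.88, 7.37, 7.22 and 7.85 in LD at day -9, and 7.17, 6.72 and 7.76 in SD and 6.56, 7.13 and 7.06 in LD at day -24. It was highest on LD day -9 replicate 4, next on SD day -24 replicate 3, and lowest on LD day -24 replicate 1. A second MRPL46 probe set, of lower signal, followed the median less closely, with r of 0.30.

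Members with a counterpart in the bacterial ribosome and those found only in the mitochondrial one had similar counts. Of 25 large subunit genes with a bacterial counterpart, 19 had r above 0.5, and of 18 without one 15 did. Of genes with small subunit names all 13 with a counterpart and 8 of 10 without one did. MRPS18A is among the 13 and MRPS30 among the 10, though both are part of the large subunit in the mammalian structures. The median interaction was -0.20 over the 38 genes with a counterpart and -0.21 over the 28 without one. MRPS36 was left out of this division, because it is now assigned to the 2-oxoglutarate dehydrogenase complex of the citric acid cycle rather than to the ribosome.

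Of the 67 genes, 6 correlated below 0 with the median of the other members (47.7% of all probe sets): MRPL50 at -0.37, MRPL32 at -0.32, MRPL20 at -0.19, MRPL44 at -0.14, MRPS35 at -0.08 and MRPS36 at -0.06. The first 4 had their 2 lowest values on LD day -9 replicate 4 and SD day -24 replicate 3, where most members were highest (10.5% of all probe sets had their 2 lowest values there). Of the 67 genes, MRPL50 alone is among the 280 probe sets described above.

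MRPL50 had log2 signals of 8.26, 8.74, 8.80 and 8.79 in SD and 8.39, 8.43, 8.79 and 7.28 in LD at day -9, and 8.64, 8.32 and 7.30 in SD and 8.59, 9.06 and 8.76 in LD at day -24. The values on LD day -9 replicate 4 and SD day -24 replicate 3 lay below all others. The interaction was 1.15 (95% interval 0.08 to 2.21, limma adjusted p = 0.900), the largest difference of any member in any contrast.

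MRPL44, which has an RNase III-like fold, had values of 8.93, 9.39, 9.37 and 9.57 in SD and 9.24, 9.41, 9.39 and 8.49 in LD at day -9, and 9.37, 8.97 and 8.43 in SD and 9.01, 9.45 and 9.15 in LD at day -24. Its 2 lowest values were again on those arrays. For day -9 minus day -24 in SD it differed by 0.39 (SE 0.26, limma adjusted p = 0.970). That difference was 0.14 with SD day -24 replicate 3 left out and 0.61 with SD day -24 replicate 1 left out.

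MRPL20, whose bacterial counterpart is needed to assemble the large subunit, had values of 8.55, 8.94, 9.03 and 8.95 in SD and 8.80, 8.85, 8.78 and 8.21 in LD at day -9, and 8.91, 8.60 and 8.23 in SD and 8.80, 9.13 and 9.21 in LD at day -24. A second MRPL20 probe set had the same profile (r = 0.98 with the first). SD minus LD at day -24 was -0.47 (SE 0.21, limma adjusted p = 0.9997), the only member with p under 0.05 before adjustment in a photoperiod contrast. The difference was between -0.63 and -0.29 when any 1 array was left out.

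MRPL32, which a mitochondrial protease must trim before it joins the ribosome, had values of 8.09, 8.44, 8.35 and 8.55 in SD and 8.31, 8.46, 8.34 and 7.88 in LD at day -9, and 8.54, 8.52 and 8.09 in SD and 8.46, 8.51 and 8.64 in LD at day -24. In LD, all day -9 values lay below the day -24 values (4.66% of all probe sets), but barely, the nearest being 8.458 and 8.459. The difference was -0.29 (SE 0.16, limma adjusted p = 0.657).

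**Figure D4:**
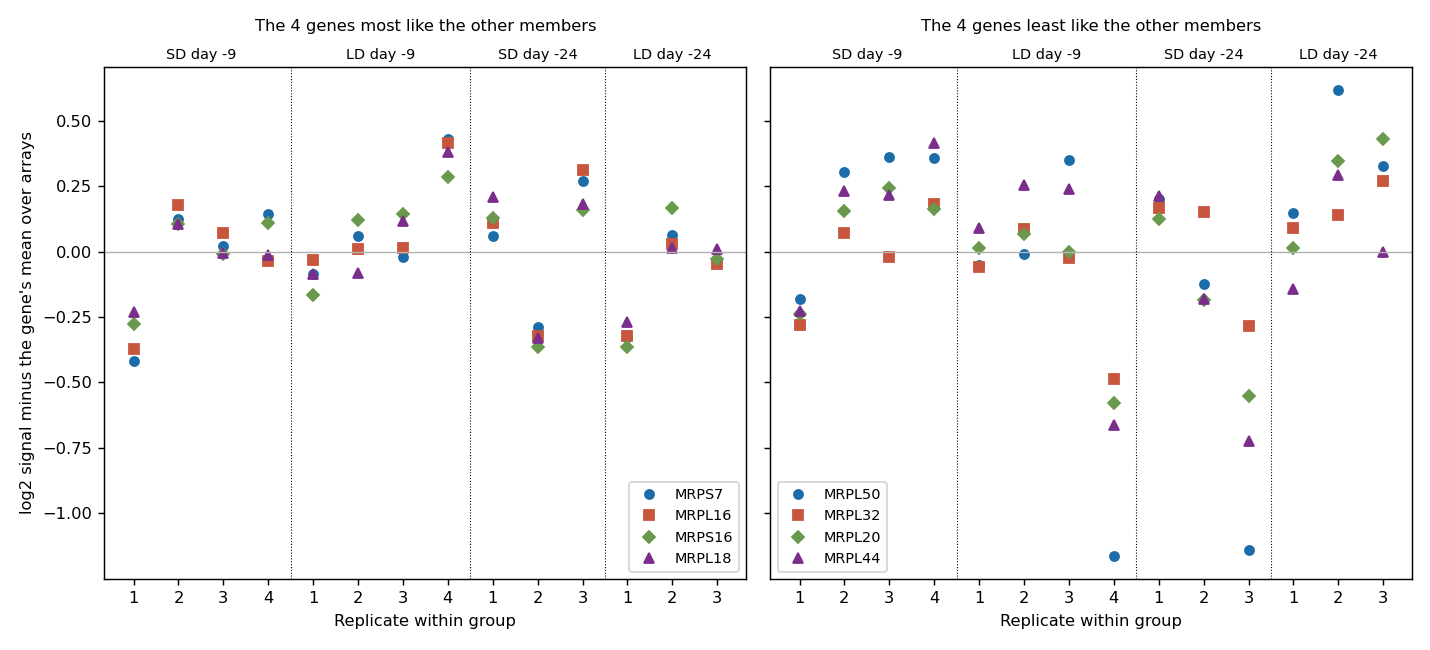
Log2 signal minus the gene's mean over 14 arrays (vertical axis) on each array by group, on the left for MRPS7, MRPL16, MRPS16 and MRPL18, the genes most like the other members, and on the right for MRPL50, MRPL32, MRPL20 and MRPL44, the least like. On LD day -9 replicate 4 and SD day -24 replicate 3 the genes on the right are at their lowest while those on the left are above their means.

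Other members departed from the common profile on single arrays or in 1 group. MRPL15, a large subunit protein with a bacterial counterpart, had values of 9.09, 10.20, 10.07 and 9.996 in SD and 9.81, 9.67, 9.99 and 9.68 in LD at day -9, and 10.12, 10.07 and 9.87 in SD and 10.29, 10.36 and 10.32 in LD at day -24. In LD the day -9 values all lay below the day -24 values (4.66% of all probe sets were separated this way), and the difference was -0.54 (SE 0.21, limma adjusted p = 0.651). Averaged over photoperiods it was -0.36 (limma adjusted p = 0.639).

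MRPL12, the stalk protein that recruits translation factors and is also reported to bind the mitochondrial RNA polymerase, had values of 8.64, 9.07, 8.87 and 8.52 in SD and 9.04, 8.10, 8.94 and 8.83 in LD at day -9, and 8.81, 8.59 and 9.14 in SD and 8.45, 9.11 and 8.95 in LD at day -24. LD day -9 replicate 2 was its lowest array. MRPL36, a large subunit protein with a bacterial counterpart, had values of 8.51, 7.85, 7.86 and 7.77 in SD and 8.13, 7.97, 7.93 and 8.33 in LD at day -9, and 7.70, 7.53 and 8.24 in SD and 7.43, 7.85 and 7.97 in LD at day -24. Unlike most members it was highest on SD day -9 replicate 1.

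Before adjustment, 4 genes lay under 0.05 for day -9 minus day -24 in LD: MRPL15, above, and MRPS14, MRPL42 and MRPS22. MRPS14, a protein of the small subunit head, had values of 9.60, 9.87, 9.79 and 9.82 in SD and 9.83, 9.90, 9.84 and 10.01 in LD at day -9, and 9.88, 9.74 and 9.82 in SD and 9.61, 9.62 and 9.61 in LD at day -24. In LD all 4 day -9 values lay above the day -24 values, which were nearly equal, and the difference was 0.28 (SE 0.10, limma adjusted p = 0.651). A second MRPS14 probe set gave 0.21 with r = 0.91 to the first.

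MRPS22, a mitochondria-specific small subunit protein, had values of 7.62, 7.89, 7.84 and 7.77 in SD and 7.92, 8.02, 7.96 and 8.21 in LD at day -9, and 8.07, 7.77 and 8.05 in SD and 7.50, 7.87 and 7.85 in LD at day -24. At day -9 all SD values lay below the LD values (1.12% of all probe sets), with a difference of -0.25 (limma adjusted p = 0.984). The interaction was -0.47 (SE 0.19, limma adjusted p = 0.900).

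MRPL42 of the large subunit had values of 8.34, 8.68, 8.72 and 8.71 in SD and 8.72, 8.80, 8.77 and 8.95 in LD at day -9, and 8.90, 8.46 and 8.84 in SD and 8.39, 8.64 and 8.44 in LD at day -24. In LD all day -9 values lay above the day -24 values, with a difference of 0.32 (limma adjusted p = 0.651). The interaction was -0.44 (limma adjusted p = 0.900).

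Groups that did not overlap were few. At day -9, SD lay below LD for MRPS22 and MRPS34 (2 of 67 genes; 1.12% of all probe sets) and above it for 0 (1.34%). At day -24, SD lay above LD for MRPS14 and MRPL51 (2.64%) and below it for MRPL15 (3.02%). In SD, day -9 lay below day -24 for MRPS28 (2.94%), whose second probe set did not share the sign of the difference. In LD, day -9 lay above day -24 for MRPS14, MRPL27, MRPL45, MRPL42 and MRPS22 (4.32%) and below it for MRPL15 and MRPL32 (4.66%).

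MRPL45 lies beside the exit tunnel, where it anchors the ribosome to the inner membrane. It had values of 8.40, 8.69, 8.57 and 8.71 in SD and 8.70, 8.84, 8.80 and 9.03 in LD at day -9, and 8.81, 8.35 and 8.85 in SD and 8.42, 8.69 and 8.50 in LD at day -24. Its difference for day -9 minus day -24 in LD was 0.31 (SE 0.14, limma adjusted p = 0.651), and for SD minus LD at day -9 it was -0.25 (SE 0.13, limma adjusted p = 0.984).

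Other genes among those with the smallest p in a contrast are given with their range when any 1 array was left out. In SD minus LD at day -9, MRPL14 differed by -0.32 (SE 0.19, range -0.43 to -0.12), with its second probe set at 0.03, and MRPL52 by -0.28 (SE 0.16, range -0.38 to -0.17). The MRPL14 difference was smallest without SD day -9 replicate 1 and the MRPL52 difference without LD day -9 replicate 4. In SD minus LD at day -24, MRPL21 differed by 0.35 (SE 0.20, range 0.16 to 0.51), MRPL51 by 0.26 (SE 0.15, range 0.19 to 0.33) and MRPS5 by 0.28 (SE 0.19, range 0.13 to 0.42). MRPL21 and MRPS5 were lowest there without SD day -24 replicate 3.

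For day -9 minus day -24 in LD, MRPL24 differed by 0.31 (SE 0.16, range 0.14 to 0.41) and MRPS6 by 0.23 (SE 0.12, range 0.15 to 0.32), both lowest without LD day -24 replicate 1. Averaged over photoperiods MRPL38 differed by 0.23 (range 0.11 to 0.32) and MRPL27 by 0.18 (range 0.07 to 0.26). In the interaction MRPL52 stood at -0.49 (range -0.59 to -0.36) and MRPS5 at -0.48 (range -0.62 to -0.33), and with arrays weighted they stood at -0.19 and -0.15. The smallest limma adjusted p of any member in any contrast was 0.639, for MRPL15 in the average over photoperiods.

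The names do not always match the structure. MRPS18A and MRPS30 carry small subunit names but are part of the large subunit in the mammalian structures. MRPS18A had values of 6.59, 6.91, 6.95 and 6.97 in SD and 6.82, 7.01, 7.01 and 7.55 in LD at day -9, and 7.03, 6.59 and 7.65 in SD and 6.49, 6.88 and 6.70 in LD at day -24, with r of 0.88 to the median. MRPS18B, its small subunit paralog, had r of 0.84. MRPS30 had its highest value, 9.07, on SD day -24 replicate 1, and r of 0.69.

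Of 14 genes with several probe sets, 7 had a pair whose difference for day -9 minus day -24, averaged over photoperiods, differed in sign: MRPL14, MRPL39, MRPL46, MRPL57, MRPS9, MRPS28 and MRPS35. Of the 17 further probe sets, 9 correlated with the brightest one of their gene at r above 0.5. MRPL23 is an example with agreement, with r of 0.98 and 0.89 for its other probe sets, and MRPS9 one without, with r of 0.31 and -0.34.

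Other genes of mitochondrial gene expression followed the members to differing degrees, in lists that include their older names, and no test was made of it. Of 12 measured genes of the translation factor list 7 had r above 0.5 with the median of the ribosomal proteins. Of 5 ribosome proteins of other names 4 did, and of 15 genes of the tRNA synthetase list 11. Of 23 assembly and rRNA genes 11 did, and of 11 genes of the mitochondrial DNA transcription and replication list 4 (21.5% of all probe sets). The tRNA synthetase list includes GATB and GATC, which are not synthetases (r of 0.84 and 0.66). The translation factor list includes OXA1L, a membrane insertase (0.83). The mitochondrial DNA list includes the regulators YY1, NRF1, PPARGC1A and PPRC1. TUFM, the elongation factor that brings tRNAs to the ribosome, had r of 0.98, the highest of all 24016 probe sets. Its log2 signals were 8.25, 8.79, 8.63 and 8.72 in SD and 8.75, 8.75, 8.74 and 9.20 in LD at day -9, and 8.78, 8.39 and 9.01 in SD and 8.28, 8.79 and 8.76 in LD at day -24. DAP3, a small subunit protein that binds GTP, and MTIF2, the initiation factor, had r of 0.94 and 0.91.

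Some regulators and some genes of the lists correlated below 0. YY1, a transcription factor, had r of -0.84 and NRF1, which activates nuclear genes for mitochondrial proteins, -0.54. PPARGC1A, the coactivator PGC-1 alpha, had -0.33 and its relative PPRC1 0.87. CHCHD1, a small subunit protein, had -0.55, RPUSD3, of the assembly and rRNA list, -0.65 and GUF1, of the translation factor list, -0.41. CHCHD1 stood at 8.14 on LD day -9 replicate 4 and at 8.23 on SD day -24 replicate 3, and at 9.03 or more on every other array. It is thus also among the 280 probe sets that were lower on both of those arrays. No gene of these lists passed the adjusted threshold in any contrast (limma). The lists had interaction medians of -0.23, -0.26, -0.23, -0.11 and 0.04 in the order given above, against -0.02 over all probe sets. All 15 genes of the tRNA synthetase list lay below 0 (52.1% of all probe sets). That list had mean deviations of -0.42 on LD day -24 replicate 1, -0.22 on SD day -9 replicate 1, 0.35 on LD day -9 replicate 4 and 0.29 on SD day -24 replicate 3.

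Measures of RNA and of cell types moved with some of the same arrays. The difference of 3' over 5' control probe sets, averaged over 5 control genes on the log2 scale, was 0.93, 0.99, 0.94 and 0.84 in SD and 0.99, 0.88, 0.80 and 1.21 in LD at day -9, and 0.98, 1.26 and 1.33 in SD and 1.10, 0.90 and 1.12 in LD at day -24. The 3 highest were SD day -24 replicates 2 and 3, of which 1 was low and 1 high in the members, and LD day -9 replicate 4. The 5 control genes did not run alike. EF1A and GST were below 0 on every array, and EIF4E ranged from 3.16 to 4.60. For SD day -24 replicate 2, GAPDH was at its highest, 1.84, and cyclophilin at its lowest, 2.08. On SD day -9 replicate 1, 63 members were below their mean. There adipocyte markers (8 of 10 measured) stood at 0.65, myoepithelial markers (9 of 10) at 0.73 and luminal markers at 0.45 relative to their own means. Each was the highest of all 14 arrays. On LD day -24 replicate 1, also low in the members, these lists stood at 0.03, -0.52 and -0.04 in that order. On SD day -24 replicate 2, likewise low, they stood at -0.56, -0.02 and -0.14. The range of adipocyte markers was -0.24 to 0.65 in SD and -0.04 to 0.55 in LD at day -9, and -0.63 to 0.11 in SD and -0.59 to 0.03 in LD at day -24. Myoepithelial markers ranged from -0.13 to 0.73 in SD and from -0.15 to 0.21 in LD at day -9, and from -0.32 to 0.03 in SD and from -0.52 to -0.02 in LD at day -24. On SD day -9 replicate 1, T and NK cell markers were at their lowest, -0.53, and skeletal muscle markers at their highest, 0.56. T and NK and skeletal muscle markers stood at 0.16 and 0.06 on LD day -24 replicate 1, and at 0.27 and -0.12 on SD day -24 replicate 2.

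Several marker lists had medians of the same sign as the members in SD minus LD at day -9 and in the interaction. They were those of fibroblast, macrophage, neutrophil, T and NK, B and plasma, and skeletal muscle markers. T and NK, B and plasma, and skeletal muscle markers had medians of -0.05, -0.17 and -0.13 at day -9. In the interaction they had -0.17, -0.15 and -0.31. Luminal and myoepithelial markers had medians above 0 in both contrasts, and those of adipocyte, endothelial and erythrocyte markers differed in sign between them. In SD minus LD at day -9 the median was -0.24 over fibroblast markers (9 of 10 genes below 0, against 49.8% of all probe sets), -0.25 over macrophage markers (8 of 8) and -0.44 over neutrophil markers (8 of 8). In the interaction it was -0.31 (8 of 10, against 52.1%), -0.24 (8 of 8) and -0.39 (8 of 8) in that order, and no gene of these lists passed the adjusted threshold (limma). Neutrophil markers, the most variable of the lists, ranged from -1.09 to 0.88 in SD and from -0.47 to 1.17 in LD at day -9, and from -0.77 to 0.57 in SD and from -0.27 to 0.45 in LD at day -24. Macrophage markers ranged from -0.50 to 0.01 in SD and from 0.03 to 0.66 in LD at day -9, without overlap. The nearest values were 0.008 in SD and 0.028 in LD. Of single probe sets 1.12% had every SD value below LD there, but these ranges are of means over a list, for which no such share was computed. At day -24 macrophage markers ranged from -0.14 to -0.10 in SD and from -0.13 to 0.14 in LD. Fibroblast markers ranged from -0.30 to 0.07 in SD and from -0.14 to 0.52 in LD at day -9, and from -0.31 to 0.26 in SD and from -0.17 to 0.16 in LD at day -24. By array, 1 endothelial and 1 erythrocyte marker correlated with the median of the members above 0.5 (21.5% of all probe sets did). No luminal, myoepithelial, adipocyte, fibroblast, T and NK, B and plasma, macrophage, neutrophil or skeletal muscle marker did. How many of these markers correlated below 0 is not given here. The part of RNA quality or of cell types in the common profile was not tested.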

How the data were processed

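Signals were measured on Affymetrix bovine arrays of mammary biopsies from RNA with an integrity number above 7, per the labels' protocols. The authors deposited log2 values, 1 per probe set and array, made by robust multi-array average (RMA), per the submitters' processing notes; its software and version are not given in the sources used here. They were used as deposited, with no filter on low values, and 112 control probe sets were left out. Arrays have no read depth, so their number, 14, limits the precision. Probe sets were named from the platform annotation, and all 67 genes matched a RefSeq symbol. No genome or sequence was used.

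A mean per group was fitted over the 14 arrays with limma 3.58.1 (R 4.3.3), with 7 contrasts, two-sided moderated tests and Benjamini-Hochberg adjustment over 24016 probe sets at 0.05. The procedure was tested on simulated data with 200 changed probe sets, in the 4 contrasts between pairs of groups. It recovered 57% to 74% of 2-fold and 88% to 95% of 4-fold changes. The simulated noise was independent between probe sets, whereas the members moved together. Alternatives left out each array or pairs of arrays, weighted or centred the arrays, normalized them again by quantiles, added an intensity trend, left out dim probe sets, used other probe sets per gene, assigned subunits by structure or added a replicate block. Genes with values were named by these rules: the 4 large and 4 small subunit genes of smallest p in each contrast, the 3 brightest and 3 dimmest per subunit, genes whose probe sets disagree, MRPL12, the genes whose name and subunit differ and the MRPS18 paralogs. The members and lists were chosen with earlier results of these data known, and the arrays that stand apart, the genes most like the other members (such as MRPS7 and MRPL16), those that ran against the rest and the bacterial counterparts were chosen after the values were seen.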

Additional observations from a re-analysis of the deposited data

Results flagged for a closer look

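In the groups of 4 arrays, 140 sets of values were examined for 1 array far from the other 3, and 14 were found. Chance gives about 1 in 20 for a single set. The genes moved together across arrays, so the sets are not independent and the count cannot be weighed against chance. On SD day -9 replicate 1, MRPL49 had a log2 signal of 8.88 (the other arrays of the group 9.47 to 9.57), MRPL2 8.48 (8.88 to 8.93), MRPL42 8.34 (8.68 to 8.72), MRPL35 8.29 (8.64 to 8.68), MRPS30 8.19 (8.60 to 8.63) and MRPL50 8.26 (8.74 to 8.80). On the same array MRPL36, at 8.51 (7.77 to 7.86), and MRPS25, at 6.25 (5.91 to 5.95), were higher than the others. On LD day -9 replicate 4, MRPL27 was at 10.02 (9.59 to 9.64), MRPL16 at 9.69 (9.24 to 9.28) and MRPS2 at 8.65 (8.07 to 8.11), while MRPL20 was at 8.21 (8.78 to 8.85) and large minus small subunit genes at -0.11 (-0.00 to 0.02). On LD day -9 replicate 2, MRPL9 was at 9.74 (10.07 to 10.14). The groups of 3 arrays were not examined in this way.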

How the results depend on the processing

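No member was called under any alternative. Counts of called probe sets stayed at 0 but for 1 probe set for day -9 minus day -24 in SD with the pair LD day -9 replicate 4 and SD day -24 replicate 3 left out, and leave-one-out ranges of 0 to 1 in that contrast and in SD minus LD averaged over days. The interaction medians of -0.20 in large and -0.22 in small subunit genes were 0.0067 and -0.032 with array weights, -0.038 in small subunit genes with that pair left out, and -0.0073 in large subunit genes with SD day -9 replicate 1 and LD day -24 replicate 1 left out, an alternative added after seeing the data; leaving out any 1 array gave -0.31 to -0.085 in large and -0.36 to -0.10 in small subunit genes. The mean of large minus small subunit genes in LD at day -24 was 0.0059 without MRPL20, MRPL32, MRPL44 and MRPL50, also added afterwards. MRPS18A, at -0.24 for day -9 minus day -24 in SD, was at 0.043 without SD day -24 replicate 3 and without that pair, and between -0.48 and 0.043 leaving out any 1 array. The cause was not tested. With a replicate block, 0 probe sets were called in each contrast, and the day medians in large and small subunit genes were -0.10 and -0.12 in SD, 0.11 and 0.12 in LD, and 0.0014 and -0.0046 averaged over photoperiods, with 34 genes above and 33 below 0. The 19 pairs of arrays with the same number correlated at a mean of 0.08 in their deviations from group means (9 above 0.1). The mean over 54 other pairs was -0.03 (11 above 0.1). The same-numbered pairs, like the replicate block, join SD with LD arrays, so they cannot tell whether a number marks 1 cow. Within a photoperiod and across days, same-numbered pairs correlated at 0.33, 0.19 and -0.31 in LD and at 0.04, 0.22 and 0.25 in SD. Pairs of different numbers there ran from -0.30 to 0.30 in LD and from -0.33 to 0.30 in SD. The numbers were not taken to pair the arrays, since not every pair exceeded 0.1 and the labels name no shared cow; whether same-numbered arrays share a cow is not known. With 3 or 4 arrays per group, differences under about 0.3 to 0.4 in a pair of groups lie within the median interval.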
